A study of Mus musculus with 8 samples.

Results

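The enzymes of glycolysis, pyruvate metabolism, the tricarboxylic acid (TCA) cycle and the pentose phosphate pathway were followed through the B6 and cast alleles of 8 mouse blastocysts. The 43 genes were chosen by symbol, and all 43 were found among the 22810 genes of the deposited counts. All 43 lie on autosomes and together held 85300 reads, between 0.645 and 0.884% of the reads of an embryo. A gene was tested if any of the 16 allele libraries (1 B6 and 1 cast library per embryo) held 10 reads of it or more, and 38 of the 43 met this minimum, as did 12564 autosomal genes in all.

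Glycolysis splits glucose into pyruvate in the cytosol and ends with lactate dehydrogenase when pyruvate is not passed on. Pyruvate dehydrogenase carries pyruvate into the mitochondrial TCA cycle, which feeds the respiratory chain, while the pentose phosphate pathway makes NADPH and ribose for nucleotides. The early mouse embryo is known to rely on pyruvate and lactate during its first cleavages and to take up and use more glucose when the blastocyst forms.

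The embryos were lysed as whole blastocysts on embryonic day 3.5 after natural mating, without culture, and their polyadenylated RNA was sequenced with SMART-Seq2, a method for full-length cDNA of single cells and other small samples. Forward embryos 1, 2 and 3 had a B6 (C57BL/6, a common inbred laboratory strain) mother and a cast (an inbred strain of Mus musculus castaneus) father. Reverse embryos 1, 2, 3, 5 and 7 had a cast mother and a B6 father. No embryo carried a mutation or received a treatment, every embryo held 1 B6 and 1 cast set of autosomes, and litters and the sex of embryos are not given in the labels. Only reads that span a SNP between both strains were counted, so the number of reads of a gene depends on its SNPs and its length, and levels were compared between embryos but never between genes.

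The SNP-spanning reads summed to between 1060063 and 1632695 per embryo. A gene without a strain difference in the fit had an expected B6 share of 55.2 to 57.4% depending on the embryo, and this share is called neutral below. Markers of trophectoderm, the outer layer of the blastocyst, summed to 3959 to 5256 CPM (counts per 1000000 reads, after TMM normalisation) in forward and 846 to 4791 in reverse embryos, and every marker of trophectoderm, epiblast and primitive endoderm was detected. Reverse embryo 1 stood apart from the other 7: its median correlation with them was 0.526 over 5474 genes, against 0.822 to 0.879 for the others, and the sum of its trophectoderm markers was the lowest of all embryos, with 5 of the 7 markers lowest there (Cdx2, Eomes, Gata3, Krt8 and Krt18, but not Tfap2c and Elf5). The sum of its 5 epiblast markers was the highest, at 446 CPM, of which Esrrb held 276 as the only marker of the list that was highest there. The results below are therefore given with and without it where it matters. The forward embryos held more reads of a leukocyte and macrophage list (858, 42.3 and 59.3 CPM, over 90% of them maternal) than the reverse embryos (1.28 to 6.54 CPM), and the part of this RNA in the differences between crosses was not tested.

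The first question was whether an enzyme was read more from the B6 or the cast allele whichever parent gave it. Of the 38 tested genes, 7 (18.4%) had a strain difference with an adjusted p up to 0.1 (edgeR's quasi-likelihood test), against 15.4% of all 12564 genes, so that the share of the enzymes was near the background. Glyceraldehyde-3-phosphate dehydrogenase (Gapdh), enolase (Eno1), glucose-6-phosphate isomerase (Gpi1), malic enzyme (Me1), the beta subunit of pyruvate dehydrogenase (Pdhb) and the beta subunit of isocitrate dehydrogenase (Idh3b) were higher from the B6 allele, and lactate dehydrogenase A (Ldha) was higher from the cast allele. Of all genes, 10.9% differed toward B6 and 4.47% toward cast. With 1 library size for both alleles of an embryo, 18.3% differed toward B6 and 2.6% toward cast, so that the B6 side took 87.5% of the calls in place of 70.9%, and the enzymes with a strain difference were then 9 (20.9% of all genes), 8 toward B6 and 1 toward cast. The median strain difference was 0.06 on the log2 scale (B6 over cast) both for the 38 enzymes and for all genes. The authors aligned the reads to the B6 reference genome mm10, and the part of this in the strain differences was not tested.

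**Figure D1:**
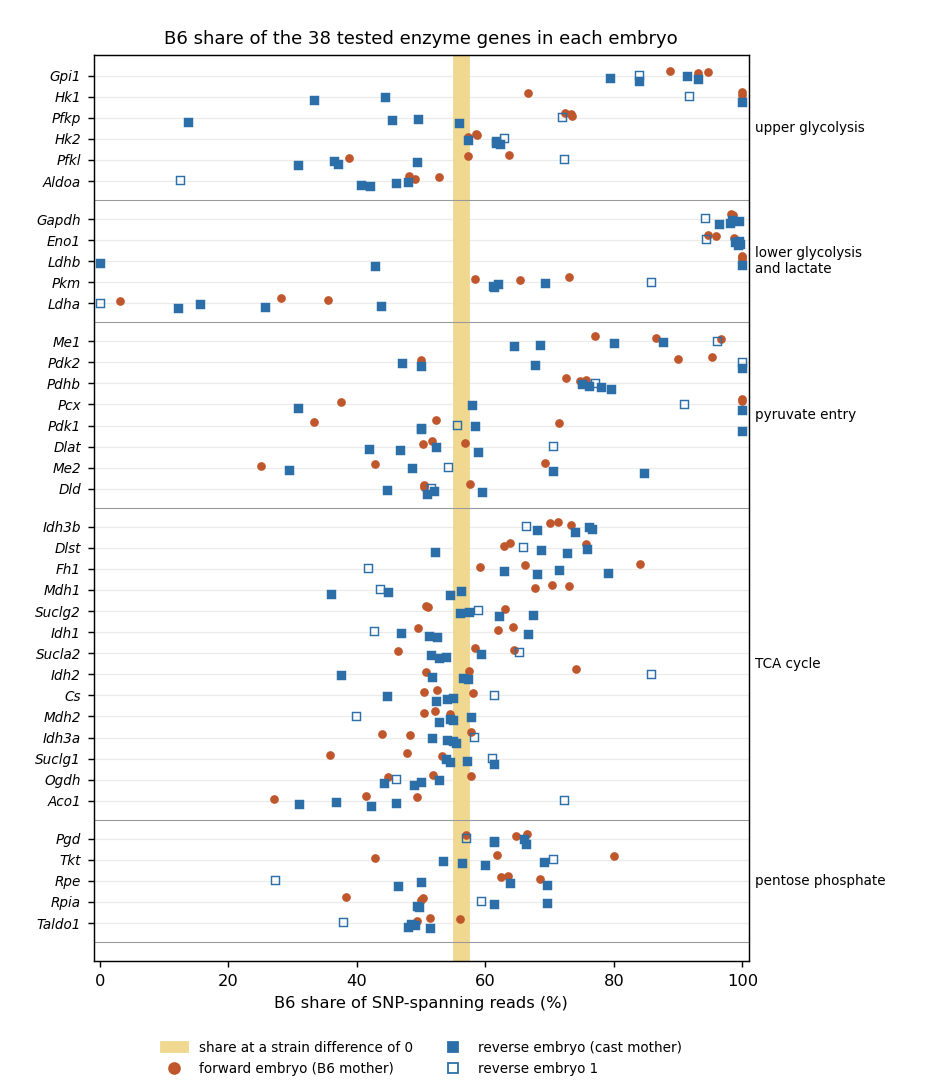
B6 share of the SNP-spanning reads (x axis, percent) of each of the 38 tested genes, ordered by pathway step, with 1 point per embryo (3 forward, 5 reverse, reverse embryo 1 as an open square). The shaded band is the neutral share of 55.2 to 57.4%, which Gapdh, Eno1, Gpi1, Me1, Pdhb and Idh3b exceed in all 8 embryos and Ldha stays under in all 8, while points of genes with few reads, such as Hk1, Ldhb, Pdk2 and Pcx, scatter widely.

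The strongest differences were in lower glycolysis. Gapdh, which oxidises glyceraldehyde 3-phosphate, had 231, 138 and 248 B6 reads in forward embryos 1, 2 and 3. In reverse embryos 1, 2, 3, 5 and 7 the B6 reads were 32, 295, 545, 301 and 234. Its cast reads were 4, 2 and 4 in the forward and 2, 5, 3, 6 and 9 in the reverse embryos. In no embryo did the cast allele reach 10 reads, and the lowest B6 count was that of reverse embryo 1. The B6 share was 97.7% ± 1.69 (SD, n = 8), and the strain difference was 5.45 ± 0.53 on the log2 scale (fitted value ± SE, adjusted p = 7.94e-08).

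Eno1, the enolase of most tissues, which makes phosphoenolpyruvate, behaved alike. Its B6 reads were 537, 344 and 399 in the forward and 101, 764, 723, 548 and 271 in the reverse embryos, against 30, 15 and 5 and against 6, 4, 8, 2 and 2 cast reads. In every embryo almost all counted reads of Eno1 were thus assigned to the B6 copy, whether the mother or the father had passed it on. The B6 share was 97.6% ± 2.25 (SD, n = 8) and the strain difference 5.34 ± 0.47 (log2, adjusted p = 2.13e-08).

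Ldha, the lactate dehydrogenase subunit common in muscle and growing cells, differed the other way. It had 20, 16 and 3 B6 reads in the forward and 0, 26, 45, 9 and 7 in the reverse embryos, against 51, 29 and 93 and against 24, 141, 58, 26 and 51 cast reads. The cast allele was ahead in each embryo, though by amounts that varied widely, from a B6 share of 43.7% in reverse embryo 3 to 0 of 24 reads in reverse embryo 1, which allows a share of up to 12.5%. The strain difference was -2.28 ± 0.58 (log2, adjusted p = 0.0106). It was -1.74 with an adjusted p of 0.132 without forward embryo 3, the forward embryo with only 3 B6 reads.

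Gpi1, which turns glucose 6-phosphate into fructose 6-phosphate, had 165, 105 and 147 B6 reads in the forward and 73, 201, 174, 148 and 68 in the reverse embryos. The cast reads were 21, 6 and 11 in the forward and 14, 19, 45, 11 and 13 in the reverse embryos. Its B6 share stayed between 79.5 and 94.6%, and the strain difference was 2.72 ± 0.37 (log2, adjusted p = 1.24e-05). Me1, the cytosolic malic enzyme that makes pyruvate and NADPH from malate, had 94, 58 and 59 B6 reads in the forward and 122, 50, 36, 61 and 49 in the reverse embryos, with 28, 9 and 2 and with 5, 7, 9, 28 and 27 cast reads. Its share varied more, from 64.5% in reverse embryo 7 to 96.7% in forward embryo 3, around a strain difference of 1.86 ± 0.44 (log2, adjusted p = 0.00578).

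Pdhb, a subunit of the E1 part of the pyruvate dehydrogenase complex, had the most reads of the 7 genes. Its B6 reads were 525, 442 and 587 in the forward and 438, 800, 834, 720 and 429 in the reverse embryos, against 198, 142 and 199 and against 130, 266, 262, 203 and 110 cast reads. The B6 share of 76.1% ± 2.15 (SD, n = 8) hardly varied between embryos, and the strain difference was 1.31 ± 0.26 (log2, adjusted p = 0.00146). Idh3b, a regulatory subunit of the NAD-dependent isocitrate dehydrogenase of the TCA cycle, had 432, 301 and 392 B6 reads in the forward and 122, 586, 706, 302 and 470 in the reverse embryos, with 174, 129 and 143 and with 62, 184, 216, 142 and 166 cast reads. Its B6 share was 71.9% ± 3.70 (SD, n = 8), above neutral in each embryo, and the strain difference was 1.09 ± 0.35 (log2, adjusted p = 0.0470). That call was lost when forward embryo 1, 2 or 3 was left out, with adjusted p-values of 0.145, 0.136 and 0.168 and differences of 1.10, 1.11 and 1.06.

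**Figure D2:**
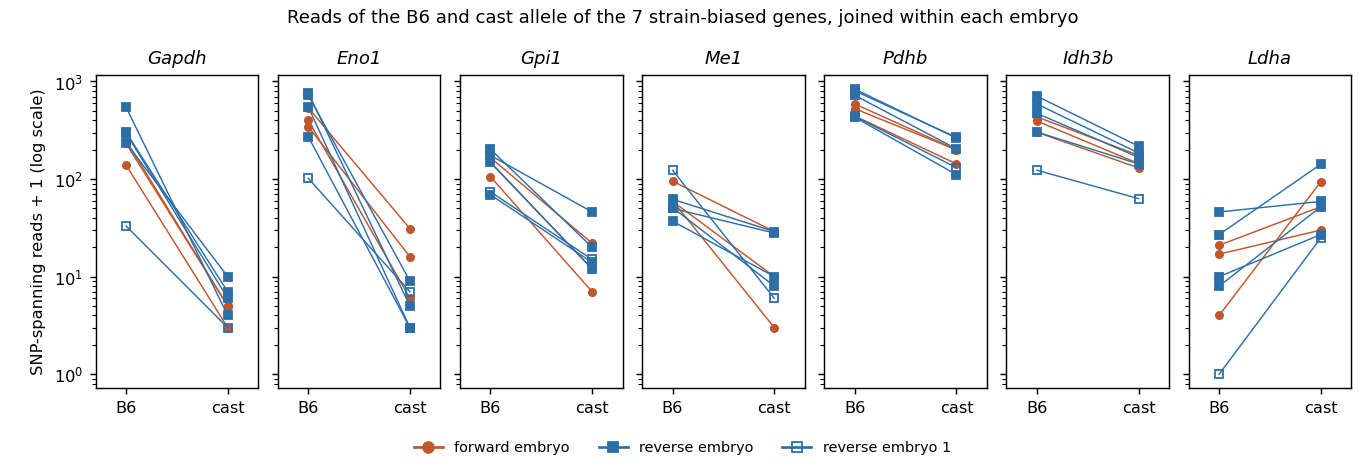
Reads of the B6 and cast allele plus 1 (y axis, log scale) of the 7 genes with a strain difference, with the 2 alleles of each embryo joined by a line. The lines fall from B6 to cast in all 8 embryos for 6 genes and rise in all 8 for Ldha, in forward and reverse embryos alike. With both alleles summed, reverse embryo 1 (open squares) has the fewest reads of Gapdh, Eno1, Idh3b and Ldha, but not of Gpi1, Me1 and Pdhb.

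The 2 alleles of an embryo form a true pair, and a term for each embryo raised the number of genes with a strain difference to 16 of 38 (42.1%), against 25.5% of all genes in the same fit. The 9 further genes had smaller differences. The B6 allele was higher for hexokinase 2 (Hk2), pyruvate kinase (Pkm), the E2 part of oxoglutarate dehydrogenase (Dlst), fumarase (Fh1) and 6-phosphogluconate dehydrogenase (Pgd), and the cast allele for aldolase A (Aldoa), cytosolic aconitase (Aco1), the E1 part of oxoglutarate dehydrogenase (Ogdh) and transaldolase (Taldo1), so that 11 differed toward B6 and 5 toward cast, against 15.7 and 9.88% of all genes. Without reverse embryo 1 the number was 17 of 38 with this term and 10 of 38 (26.3%) without it, where 29% and 20.5% of all genes differed. The B6 share was above neutral in all 8 embryos for 8 of 38 enzymes, the 6 named above and Hk2 and Pkm, and under it in all 8 for Aldoa and Ldha, while 8.84 and 5.43% of all genes did so.

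Hk2, which phosphorylates glucose on entry and is bound to mitochondria, was the gene with the most reads of the list, 15906. It had 1663, 1424 and 795 B6 and 1175, 1001 and 591 cast reads in the forward embryos, and 1339, 1685, 788, 1034 and 768 B6 and 788, 1255, 490, 644 and 466 cast reads in the reverse embryos. Its B6 share was 60.1% ± 2.30 (SD, n = 8), a little above neutral throughout. The strain difference of 0.22 ± 0.24 (log2) had an adjusted p of 0.677, and of 0.0243 with a term for each embryo (0.23 ± 0.07).

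Of the 7 genes with a strain difference, 6 had pseudogene copies. Gapdh is known for its many processed pseudogenes, and transcripts of 160 other genes matched its coding sequence in GENCODE M21 for mm10 at 90% identity or more over at least 50% of its length, 151 of them pseudogenes. Ldha had 10 pseudogene copies, Eno1 and Pkm 5 each, Aldoa 4, and Gpi1, Ldhb, Pdhb, Me1, Suclg2 and Taldo1 had 1 each. Of the 11 tested enzymes with a pseudogene copy, 6 (54.5%) had a strain difference, and of the 27 without one, only Idh3b (3.7%). Over all tested genes with an annotated coding sequence the shares were 27% of 1032 with and 12.9% of 9549 without a copy. With a term for each embryo they were 9 of 11 (81.8%) and 7 of 27 (25.9%) for the enzymes, against 39.8 and 24.3% of all genes. The authors left out reads that map to several places, and the part of the copies in the strain differences was not tested. The only pseudogene copies with rows of their own in the counts were 4 of Gapdh, with 168 reads in all.

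How alike gene and copy are is shown for 4 of the genes with a strain difference. The stretches are 60 bases of the coding strand in the B6 reference, with the bases that differ in capitals. Each stretch was placed around the difference nearest to the middle of the match or, for Gapdh, where none was found, in the middle. Genes without a strain difference in the main fit are not shown, and some had close pseudogene copies too. Suclg2 had one at 98.9% identity (strain difference 0.09, log2) and Pkm at 98.4% (0.58). The closest of Taldo1 and Aldoa were less alike, at 94.9 and 91.8%. Whether the identity of a copy goes with the strain difference was not tested. Eno1 lies on chromosome 4 (mm10, 150236721 to 150248879, plus strand) and the stretch is bases 696 to 755 of its longest coding sequence. The copy Gm4735 on chromosome 2 is 99.6% identical over the match and differs here at 1 base.
Eno1: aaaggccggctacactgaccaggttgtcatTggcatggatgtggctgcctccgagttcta
Gm4735: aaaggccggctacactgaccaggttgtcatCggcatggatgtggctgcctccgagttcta
Gapdh lies on chromosome 6 (125161715 to 125166467, minus strand), and bases 539 to 598 of its longest coding sequence are the same in the copy Gm7336 on chromosome 7, which is 100% identical over the match.
Gapdh: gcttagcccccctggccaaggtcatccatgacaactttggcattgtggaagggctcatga
Gm7336: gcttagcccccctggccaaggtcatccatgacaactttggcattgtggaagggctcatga
Me1 lies on chromosome 9 (86581371 to 86695953, minus strand), and its copy Gm7049 on chromosome 13 is 98.4% identical, with 1 difference in bases 831 to 890.
Me1: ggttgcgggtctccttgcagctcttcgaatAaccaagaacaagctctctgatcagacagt
Gm7049: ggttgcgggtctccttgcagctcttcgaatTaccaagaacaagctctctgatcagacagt
Ldha, the gene that differed toward cast, lies on chromosome 7 (46841475 to 46855627, plus strand), and its closest copy Gm5452 on chromosome 13 is less alike, at 95.9% identity with 4 differences in bases 561 to 620.
Ldha: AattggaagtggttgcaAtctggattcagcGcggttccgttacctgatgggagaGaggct
Gm5452: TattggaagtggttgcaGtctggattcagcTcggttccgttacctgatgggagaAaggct

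**Figure D3:**
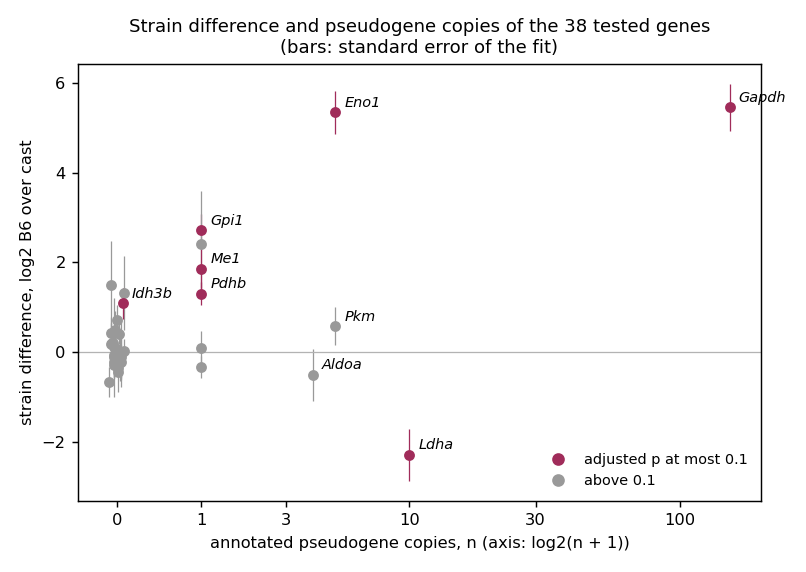
Strain difference (y axis, log2 B6 over cast, bars are the standard error of the fit) of the 38 tested genes against the number of annotated pseudogene copies (x axis, log2 of the number plus 1). The 2 differences above 5, Eno1 and Gapdh, have 5 and 151 pseudogene copies, and most genes without a copy lie near 0, with Idh3b the only called gene among them.

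Idh3b, at chromosome 2 (130279309 to 130284547, minus strand), shares exonic sequence with Nop56 on the other strand. Among the tested genes, Hk1, Gpi1, Pfkp, Aldoa, Gapdh, Me1, Mdh1 and Rpe also overlap antisense genes. Whether the counting used strand is not given in the sources used here, so reads of these overlaps are uncertain. A gene outside these overlaps, Pdhb, lies on chromosome 14 (8165996 to 8173025, minus strand).

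Equal reading of both strains' alleles was tested as well, as a strain difference of less than 2-fold in either direction. This was met by 12 of 38 enzymes (31.6%, against 16.6% of all genes): Hk2, the E2 and E3 parts of pyruvate dehydrogenase (Dlat and Dld), citrate synthase (Cs), Idh1, Ogdh, Suclg2, Sucla2, Mdh2, Taldo1, Pgd and ribose-5-phosphate isomerase (Rpia). The enzymes had more reads than most genes, with a median of 1196 against 309 over the 8 embryos. With a term for each embryo, 21 of 38 met this criterion, with or without reverse embryo 1, against 32.9 and 37.1% of all genes, and without that embryo and that term 18 did, against 31.4%. Without any 1 of the forward embryos 0 did so in edgeR (12 to 14 at an unadjusted p under 0.05), and without reverse embryo 2, 5 or 7 the number was 7, 6 and 7. The share of all genes in these last fits is not given here, so the lower numbers are not read as a trait of the enzymes.

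The reciprocal crosses were made to separate parent of origin from strain. None of the 38 enzymes differed between the maternal and the paternal allele by edgeR's quasi-likelihood test (1 at an unadjusted p under 0.05), against 1.42% of all genes. DESeq2 called 0 of 38 as well, against 2.08% of all genes, and without reverse embryo 1 edgeR called 0 (3 at an unadjusted p under 0.05), against 1.64%. The median parental difference (log2, paternal over maternal) was -5.4e-05 for the enzymes and -0.01 for all genes. By step, the median was -0.37 for the 6 enzymes of upper glycolysis, 0.16 for the 5 of lower glycolysis and lactate, 0.02 for the 8 of pyruvate entry, 0.01 for the 14 of the TCA cycle and 0.004 for the 5 of the pentose phosphate pathway. The TCA cycle step here also holds related enzymes, namely the cytosolic Aco1 and Mdh1 and the NADPH-making Idh1 and Idh2.

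A parental difference of less than 2-fold was met by 21 of 38 enzymes (55.3%), against 35.4% of all genes. This held for 12 of the 14 tested enzymes of the TCA cycle step, all but the related enzymes Idh2 and Mdh1. It held for 4 of the 5 of the pentose phosphate pathway, all but ribulose-phosphate epimerase (Rpe). It held for 3 of the 8 of pyruvate entry, the subunits Pdhb, Dlat and Dld, and for 2 of the 11 of glycolysis, Hk2 and Pkm. With a term for each embryo the number was 27 of 38, against 45.3% of all genes, and it then held for 7 of the 11 of glycolysis (Hk2, Gpi1, Pfkl, Aldoa, Gapdh, Pkm and Ldha). Without reverse embryo 1 it was 27 of 38, against 47.4% of all genes, and 6 of the 11 of glycolysis. Without forward embryo 1, 2 or 3 it was 13, 11 and 10, and the share of all genes in these 3 fits is not given here.

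Mdh2, the mitochondrial malate dehydrogenase and the gene with the most reads of the TCA cycle (5360), is an example of both alleles read alike. Its maternal reads were 366, 229 and 406 in the forward and 186, 367, 513, 294 and 238 in the reverse embryos, against 335, 225 and 339 and against 123, 501, 614, 358 and 266 paternal reads. The higher count fell to the B6 allele in 7 of 8 embryos and to the cast allele in reverse embryo 1. The B6 share was above neutral in only 1 embryo, and the strain difference was -0.14 ± 0.32 (log2, adjusted p = 0.862 in edgeR). The maternal share over the embryos was 49.7% ± 5.85 (SD, n = 8). The parental difference was 0.02 ± 0.32 (log2), and the test of less than a 2-fold difference gave an adjusted p of 0.0282.

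With a term for each embryo, 2 of 38 enzymes (5.26%) had a parental difference, against 3.1% of all genes. Mdh1, the cytosolic malate dehydrogenase of the malate-aspartate shuttle, which carries reducing equivalents into mitochondria, was higher from the maternal allele. Eno1 was higher from the paternal allele, by 0.92 ± 0.28 (log2, adjusted p = 0.0910), in the cast reads above: its cast allele had 30, 15 and 5 reads as the paternal allele of the forward and 6, 4, 8, 2 and 2 as the maternal allele of the reverse embryos. Without reverse embryo 1 this fit gave 3 of 38 (3.72% of all genes), with Eno1 at 1.20 (adjusted p = 0.00109) and the phosphofructokinase Pfkp added toward the maternal allele.

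For Mdh1, singled out after its values were seen, the maternal reads were 64, 54 and 46 in the forward and 101, 110, 145, 103 and 81 in the reverse embryos. The paternal reads were 27, 20 and 22 in the forward and 78, 141, 118, 58 and 97 in the reverse embryos. The maternal share was 70.3, 73.0 and 67.6% in the forward embryos, all above the neutral share of their B6 mothers, and 52.97% ± 8.32 (SD, n = 5) in the reverse embryos, whose neutral maternal share is the rest of the neutral B6 share. The parental difference was -0.66 ± 0.48 (log2, adjusted p = 1), and -0.72 ± 0.20 with an adjusted p of 0.0482 with a term for each embryo. Mdh1 lies on chromosome 11 (mm10, 21556787 to 21572367, minus strand).

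The total level of each enzyme, both alleles summed, was compared between the crosses. In a whole blastocyst fewer cells of a type and less RNA per cell cannot be told apart. None of the 38 enzymes differed between forward and reverse embryos in edgeR (1 at an unadjusted p under 0.05), as did 0.103% of all genes, 13 in number. The median difference (log2, reverse over forward) was 0.09 for the enzymes and 0.08 for all genes.

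Mdh1 had the smallest p of the list. It was at 55.6, 66.5 and 56.0 CPM in the forward and at 108, 160, 215, 122 and 174 in the reverse embryos. All reverse embryos were thus above all forward embryos. Mdh1 was picked here by its p-value, and the share of all genes that separate in this way is not given. The difference was 1.39 ± 0.33 (log2 reverse over forward) with an adjusted p of 0.249, and it passed the threshold without reverse embryo 1 (1.51, adjusted p = 0.0155) and with DESeq2 (1.42, adjusted p = 0.00491), in which 1.37 and 1.1% of all genes were called. It also passed without the read minimum (adjusted p = 0.0832, 0.679% of all genes) and with cast reads alone (2.22, adjusted p = 0.00441, 1.81% of all genes). It did not pass with B6 reads alone (0.83, adjusted p = 0.581, 84 genes called in all) or with the replicate number as a term (0.0716% of all genes). Reads of 1 strain alone set a maternal against a paternal allele, so they mix parent with cross. The reads of the X-linked enzymes Pdha1, Idh3g and G6pdx, which were not tested, had a summed paternal share of 0.326 to 0.692% in the 3 forward embryos and 1.32% in reverse embryo 1, but of 29.6 to 40.2% in reverse embryos 2, 3, 5 and 7. Over these 4 reverse embryos the paternal share was 43.1% for Pdha1, 31.5% for Idh3g and 21.5% for G6pdx, while Pfkfb1 had 4 paternal and 58 maternal reads, Tktl1 0 and 14, Pdk3 0 and 7, and Pgk1 0 and 4. The cross, the number of active or inherited X chromosomes and the leukocyte RNA of the forward embryos cannot be told apart in the comparison of crosses.

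**Figure D4:**
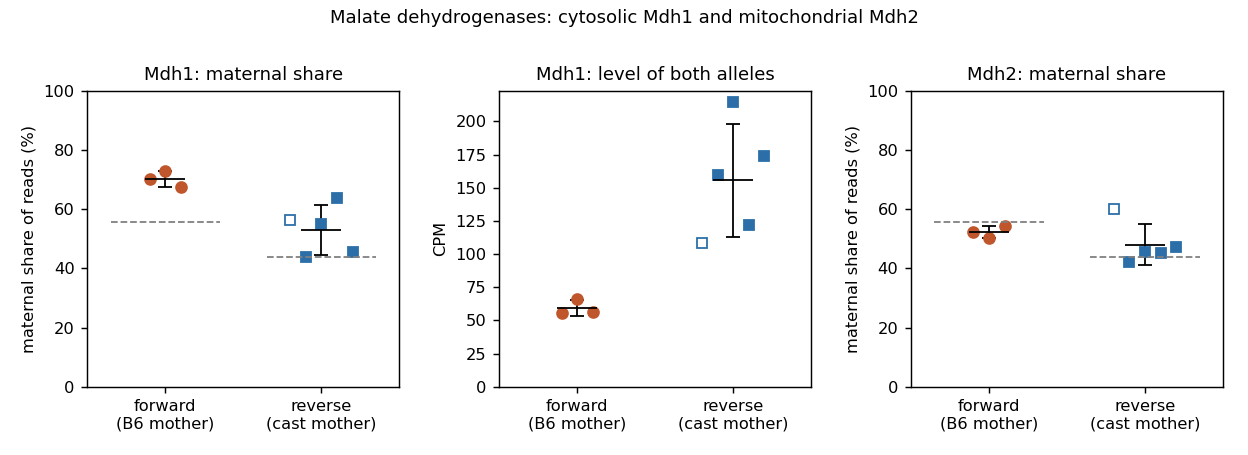
Maternal share of Mdh1 (left, percent), level of Mdh1 with both alleles summed (middle, CPM) and maternal share of Mdh2 (right, percent) in each forward and reverse embryo, with the mean and SD of each cross as black bars, the mean neutral share as a dashed line and reverse embryo 1 as an open square. The forward embryos have maternal shares of Mdh1 from 67.6 to 73.0% and the lowest levels, at 55.6 to 66.5 CPM, while the shares of Mdh2 lie near the dashed lines except in reverse embryo 1.

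Between embryos, the level of an enzyme varied about as much as that of other genes. Among the 29 enzymes with at least 20 reads in every embryo, the median coefficient of variation was 33.7%, against 33.4% for 5607 genes, and 28.6% against 26.2% without reverse embryo 1. Gapdh varied most, at 61.0%, and Ogdh least, at 13.6%. Gapdh was at 143, 126 and 208 CPM in the forward and at 20.5, 191, 448, 233 and 238 in the reverse embryos. It was lowest in reverse embryo 1 and highest in reverse embryo 3, and its variation was 46.9% without reverse embryo 1. Ogdh, which decarboxylates oxoglutarate in the TCA cycle, was at 289, 264 and 259 CPM in the forward and at 283, 296, 211, 201 and 268 in the reverse embryos, so that both crosses overlapped fully. Its 2 alleles were also close, with a B6 share of 49.6% ± 4.59 (SD, n = 8) and a strain difference of -0.34 ± 0.21 (log2, adjusted p = 0.360; 0.0732 with a term for each embryo).

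Reverse embryo 1 had the lowest level of 19 of the 38 enzymes (50%), against 27.4% of all genes, and the highest of 8 (21.1%), against 29.1%. The genes named here were singled out after their values were seen. It was lowest for 7 of the 11 enzymes of glycolysis, 2 of the 8 of pyruvate entry, 7 of the 14 of the TCA cycle and 3 of the 5 of the pentose phosphate pathway. On the log2 scale and relative to the median of the 8 embryos, Aldoa, which cleaves fructose 1,6-bisphosphate, was at -3.93 with 40 reads, Gapdh at -3.22 and the phosphofructokinase Pfkl at -2.78. Other glycolytic genes were not low, with Hk2 at 0.0068, the phosphofructokinase Pfkp at 0.53, its highest embryo, and Hk1 at 0.81 on few reads. The mitochondrial isocitrate dehydrogenase Idh2, which makes NADPH, was at -4.14 with 7 reads, against 61 to 208 reads in the other embryos. The other way, the succinate-CoA ligase subunit Suclg2 was at 1161 CPM, against 299 to 458 in the other 7, and its variation was 59.9% with and 14.9% without this embryo. The other succinate-CoA ligase subunits of the list did not follow: Suclg1 was lowest in this embryo, at 121 against 343 to 833 CPM, and Sucla2 was at 224 against 233 to 343. The part of the marker levels of this embryo, given above, in these values was not tested. Reverse embryo 3 was highest for 15 of the 38 enzymes (39.5%), against 16.6% of all genes.

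**Figure D5:**
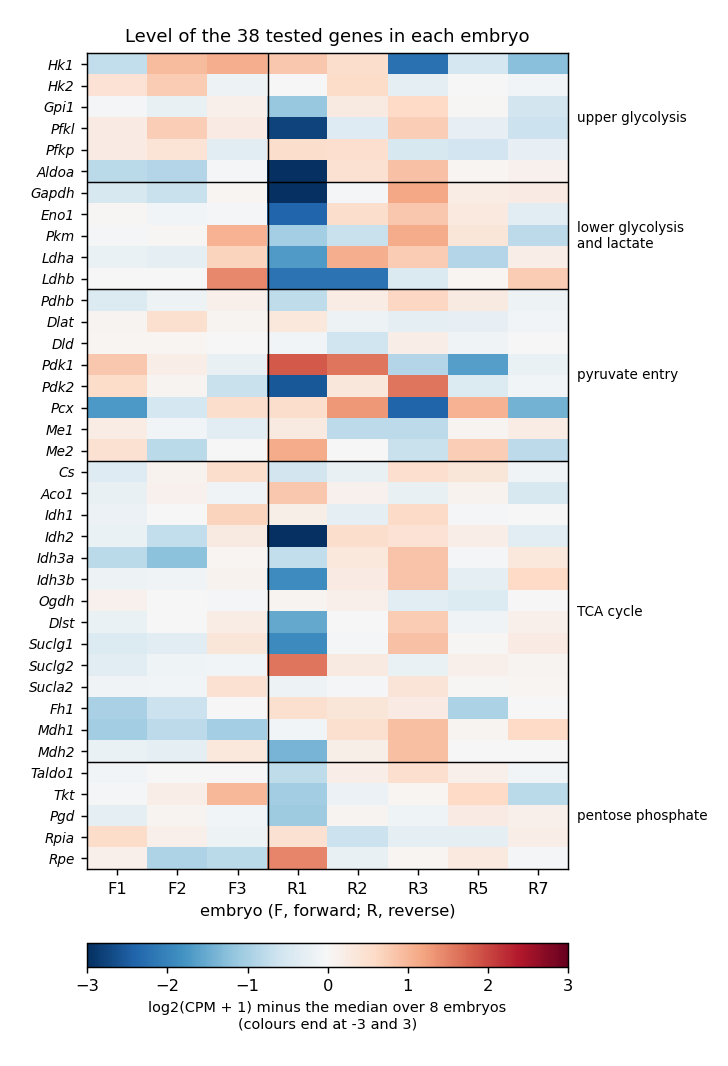
Level of each of the 38 tested genes (rows, by pathway step) in each embryo (columns), as log2(CPM + 1) minus the median over the 8 embryos, from blue (lower) to red (higher). Reverse embryo 1 (R1) is the darkest blue for Aldoa, Gapdh and Idh2, which end under -3, and red for Suclg2, while R3 is a shade of red for the 15 genes that are highest there.

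The 5 genes under the read minimum had between 9 and 46 reads over the 8 embryos. They were the muscle phosphofructokinase Pfkm (46 reads), phosphoglycerate mutase Pgam1 (29), 6-phosphogluconolactonase Pgls (28), aldolase C (26) and triose-phosphate isomerase Tpi1 (9). No embryo had more than 12 reads of any of them, which is too few for a share, and since only SNP-spanning reads were counted this says nothing of their expression. Ldhb, the lactate dehydrogenase subunit common in heart, was tested on 39 reads in all, 24 of them in the forward embryos and 0 of these from the cast allele, which allows a cast share of up to 12.5%.

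Other genes of these pathways, a list of 56, had 49 rows, of which 7 were X-linked, 9 were under the minimum and 33 were tested. Toward B6, 4 of 33 had a strain difference and toward cast 5, against 10.9 and 4.47% of all genes, and with a term for each embryo the numbers were 6 and 7, against 15.7 and 9.88%. The mitochondrial malic enzyme Me3 had 143 B6 and 0 cast reads (adjusted p = 0.000771), which allows a cast share of up to 2.10%. Of these reads, 134 were paternal, from the reverse embryos, and only 9 maternal, from the forward embryos. The mitochondrial pyruvate carrier subunit Mpc1 had 248 B6 and 13 cast reads (3.46 ± 0.64 on the log2 scale, adjusted p = 0.000630). The others were the pyruvate dehydrogenase phosphatase Pdp2 and the hexokinase-like Hkdc1. The 5 toward cast were led by Tigar, a fructose-2,6-bisphosphatase that holds glycolysis back, with 1453 B6 and 3212 cast reads (-1.51 ± 0.29, adjusted p = 0.000732). The others were Pfkfb3, which makes fructose 2,6-bisphosphate and so drives glycolysis, the mutase Pgam2, the mitochondrial phosphoenolpyruvate carboxykinase Pck2, and Fbp1. H6pd, the hexose-6-phosphate dehydrogenase of the endoplasmic reticulum, had the only parental difference, with 4 maternal and 49 paternal reads (adjusted p = 0.0744, and 0.160 with a term for each embryo, with which only Hkdc1 differed, toward the maternal allele, at 0.0910). Of all genes, 1.42% had a parental difference without and 3.1% with that term. Between crosses, edgeR called 0 of the 33 (4 at an unadjusted p under 0.05), against 0.103% of all genes, and DESeq2 1, against 1.1%.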

How the data were processed

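RNA of 8 whole blastocysts was measured, 3 forward and 5 reverse. The deposited values are raw counts, 1 for each gene, embryo and strain, of the reads that span a SNP. The authors used STAR for alignment to mm10, dropped reads with multiple map positions, kept reads over annotated SNPs, and took the counts from an intermediate step of Allelome.Pro. The submitters' processing notes give STAR 2.5.2b and SAMtools 1.9-92.

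Gene positions came from GENCODE M21, then RefSeq, by symbol. Of 22810 rows, 18286 matched GENCODE, 2999 RefSeq and 411 a synonym, and 1114 had no match. X-linked genes and rows with no chromosome (0.850% of reads) stayed out of the tests.

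edgeR 4.0.16 (R 4.3.3, TMM, quasi-likelihood test) was fitted to the 16 allele libraries of all 12564 autosomal genes with at least 10 reads in at least 1 library, with strain and parent as terms. p-values were adjusted (Benjamini-Hochberg) over all of them and called at 0.1 or under. Equivalence used a pair of one-sided tests against a log2 margin of 1. Crosses were compared on the sum of both alleles. CPM use TMM-adjusted totals. Alternatives were DESeq2 1.42.0, other normalization, filters, thresholds and terms, and leaving out each embryo. A term for each embryo without reverse embryo 1 was added after seeing the data.

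The alleles of 1 embryo are a true pair, and the correlation of their deviations from the group means was 0.146 to 0.698. Litters are not given, so no p-value covers the spread between litters. The main strain, parent and equivalence tests took the allele libraries as separate units, without a term for each embryo. With that term, the p-values rest on the spread of allele differences within embryos. Only the comparison of crosses had embryos as its units. Limits for counts of 0 (3 reads) cover counting error only, and reads were not counted by molecule. The strain, parent and cross terms of the main edgeR fits and the parental equivalence were tested on simulated data. The simulated alleles of an embryo were drawn without pairing, and the other fits and steps were not tested this way. Values in every embryo were given for every enzyme called in the main edgeR fits, the 3 with the most reads and the most and least variable. Most enzymes called only in other fits were named without these values. Others named were chosen after their values were seen. The enzymes and lists were chosen with earlier results of these data known.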

Additional observations from a re-analysis of the deposited data

Results flagged for a closer look

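Among the 60 values of single enzymes looked at over the 5 reverse embryos, 9 had 1 embryo far from the other 4 by Dixon's test, whose chance rate is about 1 in 20 groups. Reverse embryo 1 was that embryo in 7 of the 9. It had the lowest B6 share of Aldoa (12.5%, from 40 reads), Eno1 (94.4%), Mdh2 (39.8%) and Taldo1 (37.9%), and the highest level of Dlat (154 CPM), Suclg2 (1161) and Rpe (79.7). Reverse embryo 2 had the lowest B6 share of Hk2 (57.3%) and its highest level among reverse embryos (1874 CPM).

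The B6 share of Mdh1 relative to neutral was higher in all 3 forward and lower in the reverse embryos, which the parent term tests, with an adjusted p of 1 without and 0.0482 with a term for each embryo.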

How the results depend on the processing

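A term for each embryo, a replicate block that pairs the alleles, gave 16 enzymes with a strain and 2 with a parental difference and 21 within 2-fold between strains, and without reverse embryo 1 the same block gave 17, 3 and 21. It changed the strain call of Hk2 and Ogdh and the parental call of Eno1 and Mdh1 among the genes followed through all settings. For the cross, replicate numbers are only numbers (correlations of same-numbered embryos 0.291, -0.00171 and 0.262), and as a block they left 0 enzymes called.

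Mdh1 was the 1 enzyme called between crosses with DESeq2, with no filter, with cast reads alone and without reverse embryo 1. With B6 reads alone, 0 enzymes were called. A margin of 1.5-fold left 0 enzymes equivalent in edgeR for parent and 0 for strain (10 and 5 at an unadjusted p under 0.05). The share of all genes at this margin is not given here. With 1 library size per embryo the median strain difference of all genes moved from 0.06 to 0.39 (log2), and the differences of Mdh2 and Ogdh turned to 0.19 and 0.0065, both under that median.

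Leaving out 1 embryo at a time gave 5 to 10 enzymes with a strain difference, 0 with a parental difference, 0 or 1 between crosses, 10 to 27 within 2-fold between parents and 0 to 18 between strains. For the 2-fold criterion, the share of all genes is given above only for the fits without reverse embryo 1. Gapdh, Eno1, Gpi1, Me1 and Pdhb kept their strain call in all 16 alternatives each, Ldha lost it in 1 and Idh3b in 3. Over all genes, leaving out 1 embryo at a time gave 1205 to 2449 for strain, 120 to 196 for parent and 3 to 163 for cross. Over all settings, these counts ran from 1062 to 3460, from 75 to 444 and from 0 to 228. Genes with few reads, such as Hk1, Pcx and Ldhb, had standard errors near or above 1 on the log2 scale, so that differences of 2-fold were not detectable there.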
